A study of Mus musculus with 20 samples.

Results

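Klf2, S1pr1 and Ccr7 are genes by which T cells leave tissues and return to lymph nodes. They were described here in CD44+CD8+ T cells purified from mouse lungs bearing 4T1, a mammary carcinoma cell line. The genes were chosen by their group levels in earlier results of these same arrays, and each was read from probe sets listed with 1 gene symbol. Of the 3 genes, 2 could be followed among the 17097 genes in all: Klf2 and S1pr1, each with 1 probe set, so no other probe set was there as a check. Ccr7 was not analysed here.

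Mice had received treatment through the nose, per the labels, and there were 4 groups. Saline-CTRL had 5 arrays and SD-101 had 6, while SD-101+anti-PD-1 had 5 and SD-101+anti-PD-1+a-CD4 had 4. SD-101 is a CpG oligonucleotide that stimulates TLR9, and anti-PD-1 blocks PD-1, a brake on activated T cells. The labels do not describe the action of a-CD4. All 4 groups carried 4T1 tumour cells in the lung, and dose, time, mouse strain and age were not given in the sources used here. Whether replicates came from separate animals is not stated, so p-values measure only the spread between these samples, which may be technical.

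KLF2 is a zinc finger transcription factor of quiescent T cells, which in mouse T cells binds and activates the S1pr1 gene. S1PR1 is the receptor for sphingosine 1-phosphate, a lipid kept high in blood and lymph, and T cells that display it follow the lipid out of tissue. Activated T cells lose KLF2 and S1PR1, and CD69 pulls S1PR1 from the cell surface. Both genes are also strongly expressed by endothelial cells, where flowing blood induces KLF2 through the kinases MEKK3, MEK5 and ERK5 and the MEF2 factors. Cdh5 (VE-cadherin) and Pecam1 (CD31) are genes of endothelial cells, and the question was whether Klf2 and S1pr1 followed them from array to array.

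The Klf2 promoter, from RefSeq on the build GRCm38.p6, is shown because it holds the element through which MEF2 factors act, whose upstream genes are described further on. The window is chr8:72318812-72319111 on the plus strand, from 250 bases before to 50 bases after the RefSeq start, with the MEF2 match in capitals.
Klf2 promoter: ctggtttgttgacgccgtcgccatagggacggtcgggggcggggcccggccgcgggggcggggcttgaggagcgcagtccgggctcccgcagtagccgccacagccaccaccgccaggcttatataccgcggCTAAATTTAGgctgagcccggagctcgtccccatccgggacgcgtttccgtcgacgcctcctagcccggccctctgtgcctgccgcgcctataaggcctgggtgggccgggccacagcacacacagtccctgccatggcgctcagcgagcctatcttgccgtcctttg
The capitals, CTAAATTTAG, start 118 bases before the gene start and read the same on both strands. That exact run was read from the Klf2 window itself, so Klf2 is by design among the 13 of 32851 promoter windows that hold it (0.0396%). The looser MEF2 consensus was found in 183 (0.557%). Both strands were searched. The letters CACCC, core of the sites that KLF factors bind, were found once in the Klf2 window, on the minus strand, and in 57.5% of all windows. The matches did not overlap, and a match describes the letters only.

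The purified cells carried T cell transcripts at high levels together with those of other lung cells. Values throughout are deposited log2 levels, on which 1 unit is a 2-fold difference in signal, and a higher level of one probe set than of another does not show more RNA. Cd3d, of the T cell receptor complex, averaged 11.35 over all arrays, Cd8b1 11.01 and Cd8a 10.80. The lung epithelial markers of highest level, Sftpc, Scgb1a1 and Ager, averaged 13.14, 11.63 and 11.47. Lyz2, the highest macrophage and monocyte marker, averaged 11.49. Of 12 T cell markers 0 passed the limma test in each of the 6 comparisons, and 0 had an unadjusted p under 0.05. Their mean ranged from 8.88 to 10.29 on Saline-CTRL arrays, 9.35 to 10.24 on SD-101, 9.65 to 10.11 on SD-101+anti-PD-1 and 8.42 to 10.36 on SD-101+anti-PD-1+a-CD4. Lowest were SD-101+anti-PD-1+a-CD4 replicate 2 (8.42) and Saline-CTRL replicate 1 (8.88), and results are given without them where this matters. In bulk samples fewer cells of a type and less RNA per cell cannot be told apart.

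Klf2 was high with saline and with SD-101 alone, lower with SD-101+anti-PD-1 and lowest with SD-101+anti-PD-1+a-CD4. Arrays of Saline-CTRL read 10.75, 10.78, 11.64, 11.62 and 11.37. The SD-101 arrays ran from 10.47 through a median of 11.19 to 11.67. These 2 groups overlapped over nearly their whole range.
The SD-101+anti-PD-1 arrays read 10.19, 10.10, 10.02, 10.27 and 10.71, all under the lowest saline array, by a narrow margin for replicate 5. The SD-101+anti-PD-1+a-CD4 arrays read 9.80, 9.10, 10.11 and 9.86, again all under saline. The group means were 11.23 ± 0.44 (SD, n = 5), 11.13 ± 0.42 (SD, n = 6), 10.26 ± 0.27 (SD, n = 5) and 9.72 ± 0.43 (SD, n = 4). Neighbours in this order overlapped each time: SD-101 with saline, SD-101+anti-PD-1 with SD-101 through 1 array, and SD-101+anti-PD-1+a-CD4 with SD-101+anti-PD-1 through 1 array.

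S1pr1 followed a similar order with a different last step. The Saline-CTRL arrays read 8.16, 7.69, 8.85, 8.55 and 8.25. The SD-101 arrays ran from 7.39 through a median of 7.82 to 8.33. The 2 groups overlapped, with 1 of 6 SD-101 arrays below every saline array.
The SD-101+anti-PD-1 arrays read 6.88, 6.76, 6.83, 7.08 and 7.29, below every array of both former groups. The SD-101+anti-PD-1+a-CD4 arrays read 7.18, 5.95, 7.37 and 6.93, and these overlapped SD-101+anti-PD-1 on both sides. The group means were 8.30 ± 0.44 (SD, n = 5), 7.86 ± 0.31 (SD, n = 6), 6.97 ± 0.22 (SD, n = 5) and 6.86 ± 0.63 (SD, n = 4). The lowest value, 5.95, and the lowest Klf2 value, 9.10, came from the array of lowest T cell marker level.

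**Figure D1:**
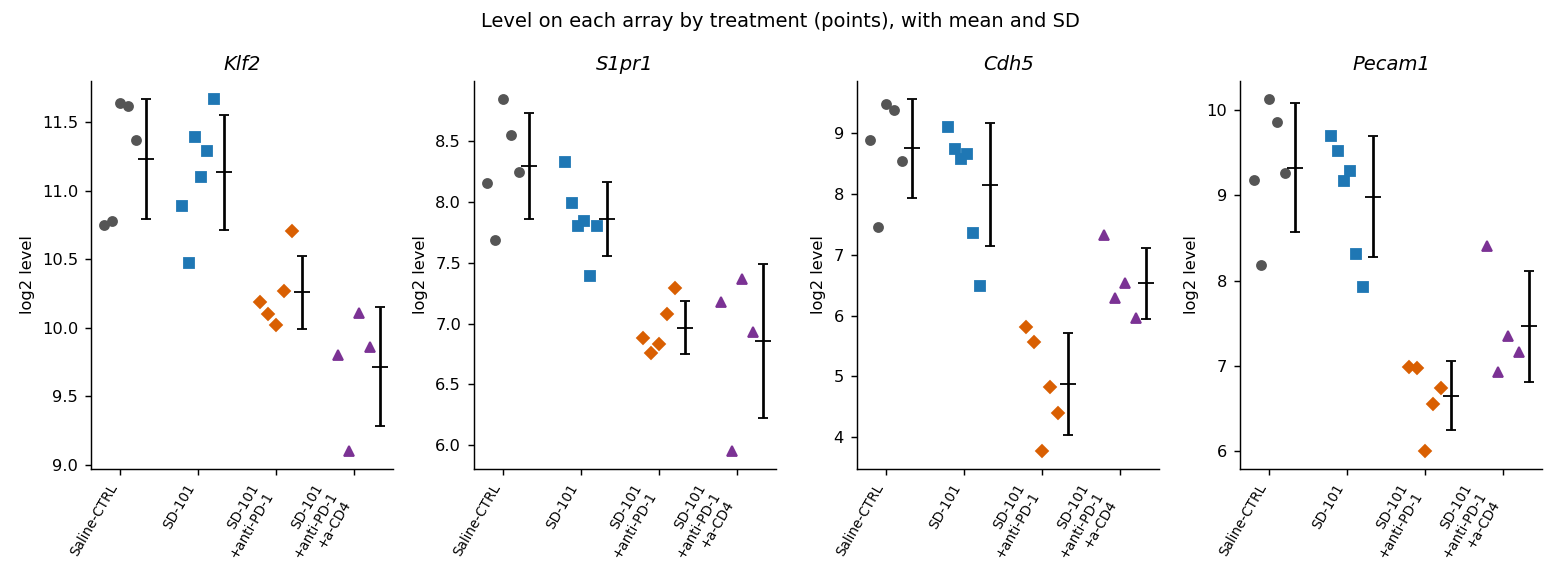
Log2 level (y axis) of Klf2, S1pr1, Cdh5 and Pecam1 on each array (points) in the 4 treatment groups (x axis), with the group mean and SD as bars. Klf2 is lowest with SD-101+anti-PD-1+a-CD4 (mean 9.72), where Cdh5 (6.53) and Pecam1 (7.46) stand above their SD-101+anti-PD-1 means (4.87 and 6.65).

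The sizes of these differences, and which groups overlap, are given as descriptions with no test, since the members were chosen with such results known. The share of all genes without overlap is not given here, so a lack of overlap sets neither gene apart. Comparisons that use the same group share its arrays. Against saline, Klf2 differed by -0.10 (SE 0.23) with SD-101, -0.97 (SE 0.24) with SD-101+anti-PD-1 and -1.51 (SE 0.25) with SD-101+anti-PD-1+a-CD4. This last difference equals a 2.85-fold lower level, with 4 of 4 arrays below every saline array. S1pr1 differed by -0.44 (SE 0.23), -1.33 (SE 0.24) and -1.44 (SE 0.26) in the same comparisons, the last a 2.72-fold lower level.
Adding anti-PD-1 to SD-101 went with differences of -0.88 (SE 0.23) for Klf2 and -0.89 (SE 0.23) for S1pr1. Adding a-CD4 to SD-101+anti-PD-1 went with -0.54 (SE 0.25) for Klf2, 3 of 4 arrays lying below every SD-101+anti-PD-1 array, and with -0.11 (SE 0.26) for S1pr1. Without replicate 2 of the group given a-CD4 these were -0.33 and 0.19, so the S1pr1 value changed sign with that array. Against SD-101 alone, SD-101+anti-PD-1+a-CD4 stood at -1.42 (SE 0.24) for Klf2 and -1.0 (SE 0.25) for S1pr1, in both genes with no overlap.

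The endothelial genes differed from saline by more log2 units than Klf2 and S1pr1 in both anti-PD-1 groups, and their order over the groups was another. Cdh5 read 8.89, 7.45, 9.47, 9.38 and 8.53 with saline and ran from 6.49 through 8.61 to 9.10 with SD-101. It read 5.81, 5.56, 3.77, 4.82 and 4.4 with SD-101+anti-PD-1 and 7.32, 6.29, 6.54 and 5.96 with SD-101+anti-PD-1+a-CD4. Arrays of SD-101+anti-PD-1 were below those of every other group, and 1 of them, at 3.77, lay near the array medians of 3.52 to 3.75.
Pecam1 showed the same order, with means of 9.32 ± 0.75 (SD, n = 5) for saline, 8.98 ± 0.71 (SD, n = 6) for SD-101, 6.65 ± 0.41 (SD, n = 5) when anti-PD-1 was added and 7.46 ± 0.65 (SD, n = 4) when a-CD4 was added as well. With SD-101+anti-PD-1 against saline, 16 of 16 endothelial markers fell at adjusted p under 0.05 in limma, where 2.15% of all genes were lower and 3.47% higher at that threshold. With a-CD4 added, Cdh5 stood 1.65 (SE 0.53) above SD-101+anti-PD-1 and Pecam1 0.81 (SE 0.41) above it, while Klf2 stood lower.

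No common slope of Klf2 on the endothelial level was detected within groups. The test took the mean log2 level of Cdh5 and Pecam1 as the endothelial level and asked, in a limma fit over all genes with the group means as terms, how far a gene moved per unit of it. Because group means were in the fit, this slope used none of the differences between groups described above. It is common to all groups, so groups that run in opposite directions can cancel. On saline arrays Klf2 was highest (11.64 and 11.62) where the endothelial level was highest (9.80 and 9.62), though its lowest value (10.75) stood at 9.04. With SD-101 it was highest (11.67) where that level was lowest (7.21). Whether the slope differed between groups was not tested. The Klf2 slope was -0.009 (SE 0.13, 95% interval -0.286 to 0.269, adjusted p = 0.999). The S1pr1 slope was 0.31 (SE 0.11, 95% interval 0.070 to 0.543, unadjusted p = 0.0141, adjusted p = 0.39), positive but not called over all genes, of which 1.63% were called in either direction.
All 14 other endothelial markers were called, beside 1.61% of all genes with a called positive slope, with slopes of 0.615 to 1.40, the highest for Tek (1.40, SE 0.14), an angiopoietin receptor. The upper bound of the Klf2 interval lies below the slope of every one of them, and so does that of S1pr1. Without SD-101 replicate 6, the array with the lowest endothelial level of its group, the Klf2 slope was 0.12 (adjusted p = 1) and the S1pr1 slope 0.40 (adjusted p = 0.354).

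The difference between the 2 slopes was itself tested, in a comparison chosen after the data were seen. The slope of S1pr1 minus Klf2 was 0.32 (permutation within groups, 2-sided, p = 0.021, n = 20). It was 0.26 to 0.37 with each array left out in turn, with a permutation p of 0.0135 to 0.0452. In this fit the slope of S1pr1 was the steeper on these arrays. Because the comparison was picked with the slopes in view, its p-value serves as a description. The difference was tested under no setting other than arrays left out. No whole group was left out, so the part of each group in it was not tested. With SD-101 the 2 genes ran in opposite directions along the endothelial genes, as given below. On saline arrays both were highest on replicates 3 and 4 (Klf2 11.64 and 11.62, S1pr1 8.85 and 8.55).

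**Figure D2:**
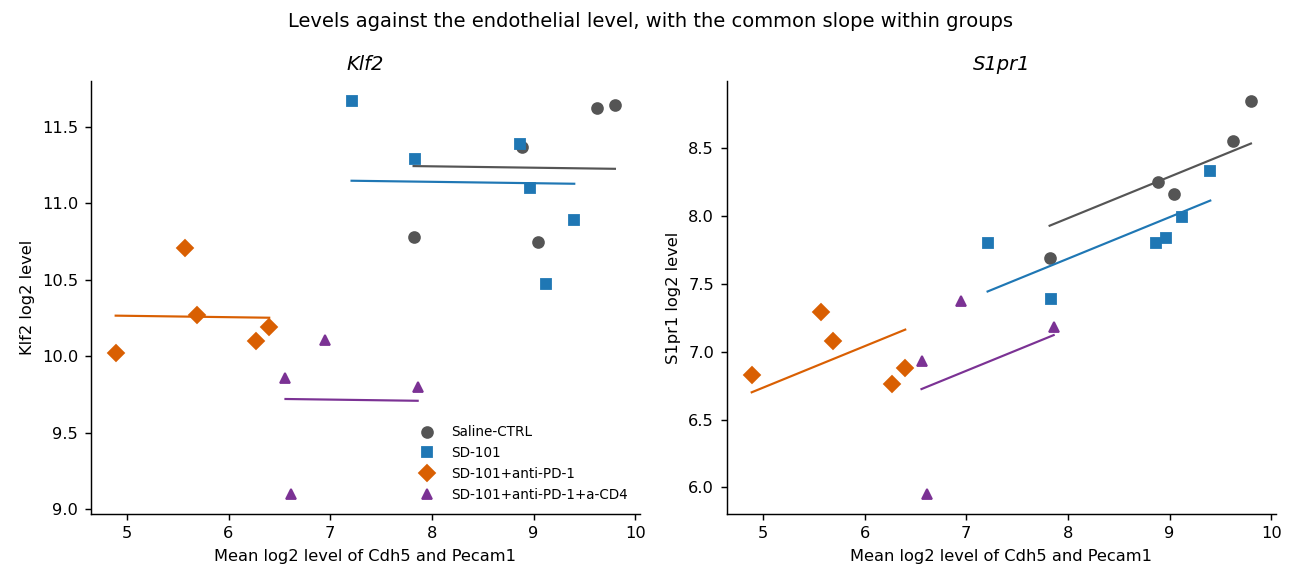
Log2 level of Klf2 (left) and S1pr1 (right) on the y axis against the mean log2 level of Cdh5 and Pecam1 on the x axis, 1 point per array, with lines of the common slope within groups. The Klf2 lines are flat (-0.009) and the S1pr1 lines rise (0.31 per unit).

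Each gene was also set against Cdh5 and Pecam1 singly, over the 20 arrays with each group's mean taken off, giving 4 pairs adjusted together. S1pr1 correlated with Pecam1 (Pearson r = 0.665, permutation p = 0.00578, adjusted p = 0.0231; Spearman rho = 0.659, adjusted permutation p = 0.0258). Its correlation with Cdh5 was lower (r = 0.457, permutation p = 0.0387, adjusted p = 0.0774; rho = 0.477, adjusted permutation p = 0.0855). With the 2 arrays farthest from the median of the endothelial gene left out, r was 0.615 with Pecam1 and 0.544 with Cdh5. Without Saline-CTRL replicate 2 the S1pr1 and Pecam1 correlation was 0.58 (adjusted permutation p = 0.112).
Klf2 gave r = -0.0974 with Cdh5 (permutation p = 0.709, adjusted p = 0.742; rho = -0.149, adjusted permutation p = 0.756) and 0.0903 with Pecam1 (permutation p = 0.742, adjusted p = 0.742; rho = 0.0421, adjusted permutation p = 0.876). With the 2 farthest arrays left out these were -0.101 and -0.0682.

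SD-101 was the only group with 6 arrays, and there the 2 genes ran in opposite directions along the endothelial genes. S1pr1 ranked with Cdh5 and with Pecam1 (Spearman rho = 0.943 for both, exact p = 0.0167, adjusted p = 0.0333, n = 6). Klf2 ranked against both (rho = -0.886, exact p = 0.0333, adjusted p = 0.0333, n = 6). Cdh5 and Pecam1 ranked these 6 arrays in the same order, so for each gene the rank test with Pecam1 repeats that with Cdh5. The Pearson values were 0.624 and 0.709 for S1pr1 (exact p = 0.214 and 0.104, adjusted p = 0.214 and 0.139) and -0.734 and -0.787 for Klf2 (exact p = 0.0917 and 0.0667, adjusted p = 0.139 for both), none past the threshold. With the 2 farthest arrays left out, r was 0.993 and 0.949 for S1pr1 and -0.401 and -0.708 for Klf2. SD-101 replicate 6 held the lowest Cdh5 (6.49) and Pecam1 (7.92) of the group and the highest Klf2 (11.67). Its S1pr1 was not the lowest: it stood at 7.80, near the group median, and replicate 5 was lowest at 7.39.

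Group differences were also taken at an equal endothelial level, where the values of the 2 genes were not tested against each other and depended on the fit. That level ran from 4.89 to 6.40 with SD-101+anti-PD-1, below 7.21 to 9.40 with SD-101 and 7.82 to 9.80 with saline. Comparisons of SD-101+anti-PD-1 with these groups therefore carry the slope within groups across levels that the groups do not share. With the Cdh5 and Pecam1 mean as a further term, Klf2 in SD-101+anti-PD-1 against saline was -1.0 (SE 0.50), close to the value without it. S1pr1 in the same comparison was -0.33 (SE 0.42), against -1.33 without the term. The standard error of the S1pr1 value was larger with the term than without it (0.24), and larger than the value itself.
In SD-101+anti-PD-1 against SD-101 the values with the term were -0.90 (SE 0.44) for Klf2 and -0.03 (SE 0.37) for S1pr1. With a-CD4 added, against saline, they were -1.53 (SE 0.37) for Klf2 and -0.82 (SE 0.32) for S1pr1. The values for SD-101+anti-PD-1 against saline depended on single arrays: Klf2 ran from -1.49 (without Saline-CTRL replicate 2) to -0.56 (without SD-101 replicate 6), and S1pr1 from -0.58 to -0.03 without the same arrays.

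**Figure D3:**
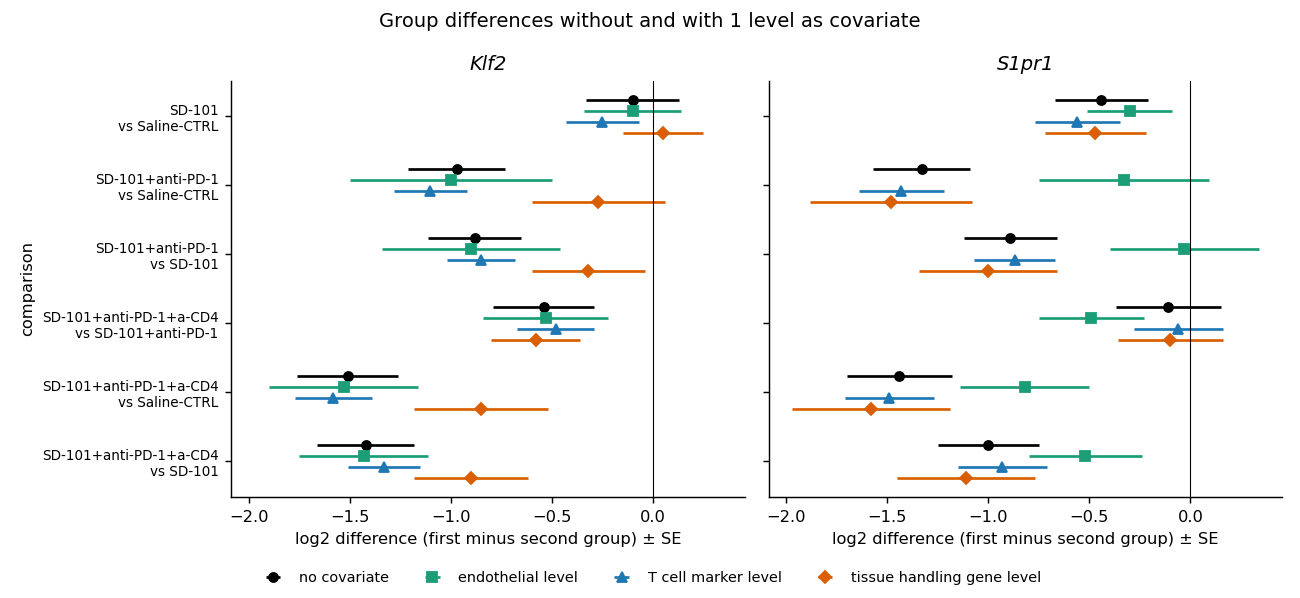
Log2 difference with SE (x axis) of Klf2 (left) and S1pr1 (right) in the 6 comparisons (y axis), from fits with no covariate and with the endothelial, T cell marker or tissue handling gene level as a term. The S1pr1 difference of SD-101+anti-PD-1 from saline moves from -1.33 to -0.33 with the endothelial level, and the Klf2 difference from -0.97 to -0.27 with the tissue handling gene level.

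Klf2 moved with the T cell marker level within groups, and S1pr1 did not pass that test on its own. The Klf2 slope on the mean of the 12 T cell markers was 0.53 (SE 0.14, limma adjusted p = 0.00829), and 24.2% of all genes were called on that level. The S1pr1 slope was 0.42 (SE 0.16, adjusted p = 0.07), and 0.084 (adjusted p = 0.837) without SD-101+anti-PD-1+a-CD4 replicate 2. Klf2 stayed at 0.63 (adjusted p = 0.0475) without that array.
With the endothelial and T cell levels in 1 fit, S1pr1 was called on both, at 0.34 (SE 0.082, adjusted p = 0.0338) per unit of endothelial and 0.48 (SE 0.12, adjusted p = 0.00632) per unit of T cell level. Klf2 was called on the T cell level alone, at 0.54 (SE 0.14, adjusted p = 0.0102), its endothelial slope being 0.034 (SE 0.10, adjusted p = 0.993). In that fit 2.08% of genes were called on the endothelial level and 24.2% on the T cell level, so a call on the latter sets neither gene apart. The fit with both levels was not repeated with arrays left out.
B cells and mature dendritic cells, which also use these genes, gave no call: the Klf2 slopes were 0.15 (adjusted p = 0.96) on B cell and -0.013 (adjusted p = 0.986) on dendritic cell markers, and the S1pr1 slopes 0.10 (adjusted p = 0.979) and -0.11 (adjusted p = 0.849). The calls over all genes came to 0.00585% and 0.708% on these levels. The highest B cell markers, Cd79b, Blnk and Fcer2a, averaged 6.44, 4.03 and 3.91 over all arrays. The highest dendritic cell markers, Fscn1, Itgax and Batf3, averaged 8.38, 5.13 and 4.09. Blnk and Fcer2a lie near the array medians of 3.52 to 3.75, and the B cell level had an SD of only 0.05 with saline. The 95% intervals of the B cell slopes were wide (Klf2 -0.489 to 0.783, S1pr1 -0.544 to 0.753), so the missing calls do not show that no slope exists.

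The genes most like Klf2 within groups were others than the endothelial genes. Likeness was Pearson r over the 20 arrays after group means were taken off, among the 8547 other genes above the median level, and is given as a description of arrays that share their RNA preparation. The closest was Tagap (r = 0.95), a GTPase-activating protein of activated T cells. Cd69, the S1PR1 antagonist, Vps37b (both 0.92), Tnfaip3, which restrains NF-kB signalling, and P2ry10 (both 0.91) came next. On this scale S1pr1 ranked 1465 for Klf2 (r = 0.53), Pecam1 3863 and Cdh5 4770.
Cd69 read 9.01, 9.05, 10.69, 10.35 and 10.38 with saline, so replicates 1 and 2 were low there as they were for Klf2. With SD-101 its lowest arrays were replicates 2 and 1 (8.20 and 9.02), again those of lowest Klf2. It read 8.48, 8.03, 8.64, 8.16 and 8.92 with SD-101+anti-PD-1 and 8.44, 6.79, 8.74 and 8.76 with SD-101+anti-PD-1+a-CD4.

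S1pr1 had other genes most like it. They were Tspan13 (r = 0.94), a tetraspanin, Clec2d (0.92), a ligand of an NK cell receptor, Adgre5 (0.92), which encodes CD97, the kinase gene Snrk (0.90) and Cd47 (0.87), the "don't eat me" signal. Pecam1 ranked 159 for S1pr1 (r = 0.67), Klf2 777 (0.53) and Cdh5 1237 (0.46). Tspan13 read 10.07, 9.72, 10.84, 10.61 and 10.49 with saline and 9.32, 8.96, 9.30, 9.38 and 9.38 with SD-101+anti-PD-1, so its groups did not overlap either.

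Levels of a set of genes, named here after their known response to tissue handling, moved with Klf2. Whether handling induced them on these arrays was not tested. A list of 9 measured genes of this kind (Fos, Jun and Dusp1 being those of highest level) was chosen after the data were seen. Its levels, correlations and use as a term in fits are therefore given as descriptions. The mean of the 9 genes was 10.04, 9.84, 10.95, 11.09 and 10.70 with saline, lowest on the 2 arrays of lowest Klf2. It was 9.42 and 9.65 on SD-101 replicates 1 and 2, where Klf2 was also lowest, and 10.51 to 10.69 on the other 4.
With SD-101+anti-PD-1 it ran from 8.82 to 9.29 and with SD-101+anti-PD-1+a-CD4 from 8.73 to 9.52, below every saline array. Over the 20 arrays with group means taken off, r with this mean was 0.56 for Klf2 and -0.11 for S1pr1. Other marker levels moved with Klf2 as well, with r of 0.61 for NK cell, -0.51 for neutrophil and -0.46 for lung epithelial markers. The lung epithelial level averaged 9.19 ± 0.84 (SD, n = 5) with saline and 10.05 ± 0.20 (SD, n = 5) under SD-101+anti-PD-1. The part of these levels in the Klf2 differences was not tested. With the handling gene mean as a term, the Klf2 difference of SD-101+anti-PD-1 from saline was -0.27 (SE 0.33) and with a-CD4 added -0.85 (SE 0.33), while S1pr1 stood at -1.48 (SE 0.40) and -1.58 (SE 0.39). The part of the handling gene level was likewise not tested.

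**Figure D4:**
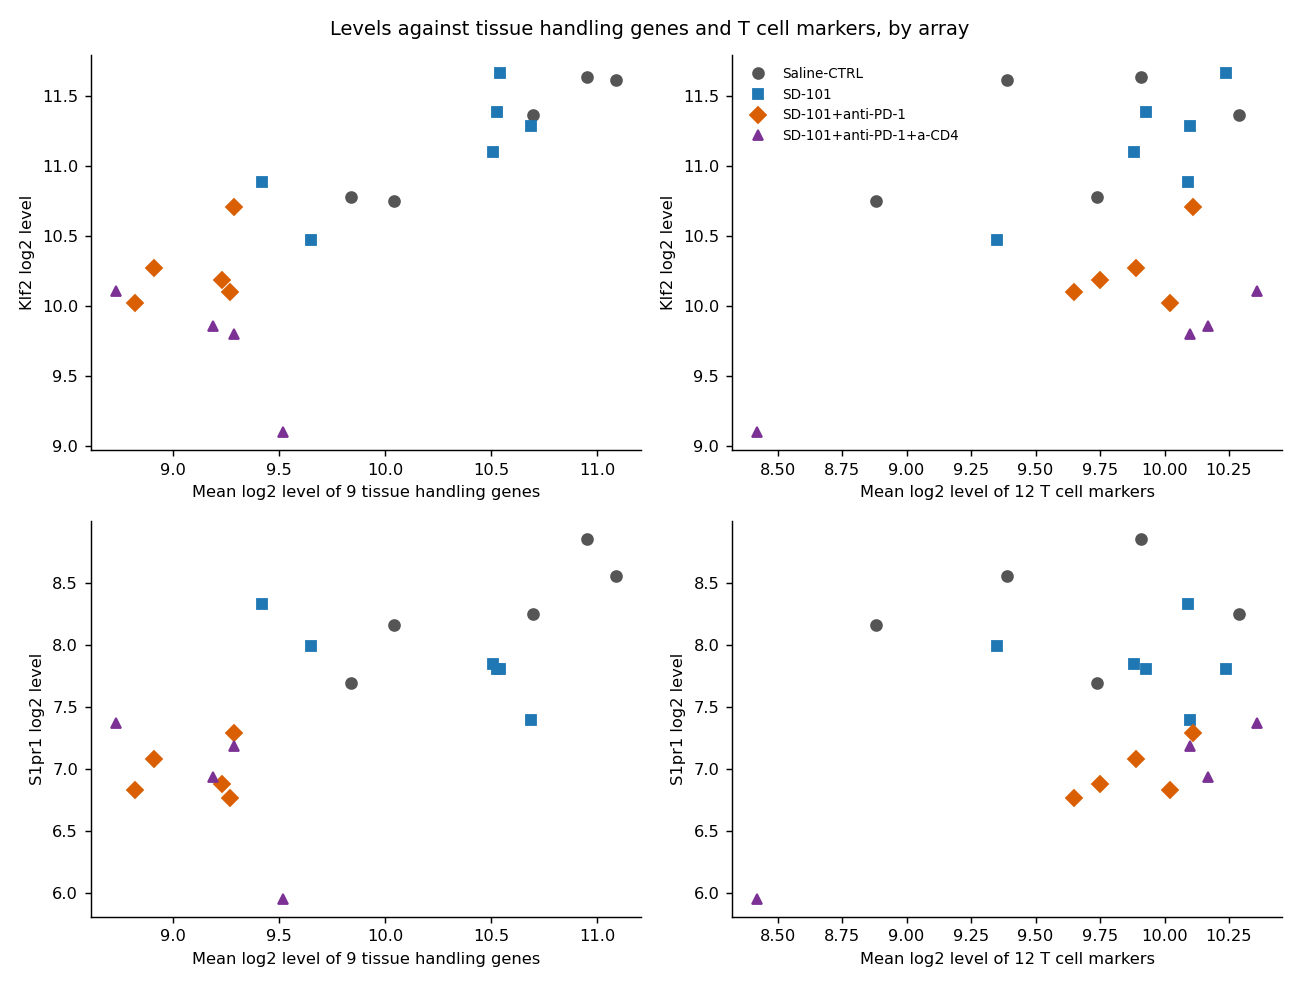
Log2 level of Klf2 (top) and S1pr1 (bottom) on the y axis against the mean log2 level of 9 tissue handling genes (left) and of 12 T cell markers (right), 1 point per array. Saline and SD-101 arrays with low handling gene levels have low Klf2, and the SD-101+anti-PD-1+a-CD4 array with a T cell marker level of 8.42 has the lowest value of both genes.

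Few of the other genes of egress and homing passed the test. Of 34 such genes 28 were measured, among them receptors and suppliers of sphingosine 1-phosphate, controllers of KLF2 and genes of lymph node homing, and the other 6 were not analysed here. Against saline, SD-101 changed 0 of 28 in limma (4 at unadjusted p under 0.05, 0.333% of all genes called). SD-101+anti-PD-1 lowered 2 of 28 and raised none, beside the 2.15% lower and 3.47% higher of all genes. SD-101+anti-PD-1+a-CD4 lowered 5 of 28 and raised none, where 3.03% of all genes were lower and 4.09% higher, and lowered 3 of 28 without the 2 arrays of lowest T cell marker level.
The median differences of the list were -0.02, -0.06 and -0.06, beside 0.012, 0.031 and 0.037 over all genes. In the other 3 comparisons 0 of 28 were called in limma (6, 6 and 9 at unadjusted p under 0.05), beside 4.77% of all genes for SD-101+anti-PD-1 against SD-101, 2.13% for the addition of a-CD4 and 0.983% for the group given a-CD4 against SD-101. Without the 2 arrays of lowest T cell marker level, 2 were lower and 1 higher in SD-101+anti-PD-1 against SD-101.

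No other sphingosine 1-phosphate receptor was called. S1pr4, the other receptor of lymphocytes, averaged 8.32 ± 0.37 (SD, n = 5) with saline and 8.50 ± 0.20 (SD, n = 5) under SD-101+anti-PD-1. S1pr2, which opposes migration, averaged 5.71 ± 0.52 (SD, n = 5) and 6.37 ± 0.16 (SD, n = 5), a difference of 0.65 (SE 0.25, limma adjusted p = 0.146). S1pr5, the receptor of NK cell egress, was between 3.12 and 3.97 in all group means.
Among genes that set the lipid's level, Plpp3, whose product degrades it, fell by 1.31 with SD-101+anti-PD-1+a-CD4 (SE 0.29, limma adjusted p = 0.00927), from 9.90 to 8.59. Spns2, the exporter of the lipid from endothelial cells, differed by -1.87 with SD-101+anti-PD-1 (SE 0.59, adjusted p = 0.0739). Cd69 differed by -1.45 (SE 0.49, adjusted p = 0.0939) and, with a-CD4 added, by -1.71 (SE 0.52, adjusted p = 0.0512) from saline.

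Klf3, of the KLF family, and Mef2a fell with both anti-PD-1 regimens against saline. Klf3, a repressor of the same family that KLF factors regulate, fell by 0.53 (SE 0.15, limma adjusted p = 0.0414) with SD-101+anti-PD-1 and by 1.06 (SE 0.16, adjusted p = 0.00079) with a-CD4 added. Mef2a, a factor of the family whose element is in the promoter shown above, fell by 0.48 (SE 0.13, adjusted p = 0.0415) and by 0.75 (SE 0.14, adjusted p = 0.00384). The Klf3 and Mef2a values with SD-101+anti-PD-1 lost their call in 11 and 10 of 20 fits with 1 array left out, up to adjusted p = 0.13 (without Saline-CTRL replicate 3) and 0.109 (without Saline-CTRL replicate 5). The values with a-CD4 added kept theirs in all 20.
Map3k3, the gene of MEKK3, fell by 0.50 with SD-101+anti-PD-1+a-CD4 (SE 0.13, adjusted p = 0.027), and Mapk7, the gene of ERK5, differed by 0.09 (SE 0.14, adjusted p = 0.781). Mef2d differed by -0.35 (SE 0.18, adjusted p = 0.285). Lef1, a factor of naive and memory T cells, fell by 1.54 (SE 0.41, adjusted p = 0.0288), with 2 of 4 arrays below every saline array. Map3k3 and Lef1 each lost their call in 4 of 20 such fits, up to adjusted p = 0.0925 and 0.0943 without SD-101+anti-PD-1+a-CD4 replicate 2, and Map3k3 was at 0.0758 with arrays centred on their median.

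Klf4 and genes that KLF2 and KLF4 activate in endothelium fell with both anti-PD-1 regimens, except Nos3 with a-CD4 added, and so did the endothelial markers. Klf4, a close relative of KLF2 induced by flow, fell by 2.18 (SE 0.28, limma adjusted p = 0.000205) with SD-101+anti-PD-1 and by 1.84 (SE 0.30, adjusted p = 0.00151) with a-CD4 added. Thbd, which encodes the anticoagulant thrombomodulin, fell by 2.06 (SE 0.35, adjusted p = 0.00137) and by 2.0 (SE 0.37, adjusted p = 0.00311). Nos3, endothelial nitric oxide synthase, fell by 1.49 (SE 0.36, adjusted p = 0.0182) with SD-101+anti-PD-1, a call that ended in 2 of 20 fits with 1 array left out (up to adjusted p = 0.0618 without Saline-CTRL replicate 3).
On the endothelial level within groups, Thbd (slope 0.72, SE 0.088, adjusted p = 7.3e-05) and Nos3 (0.59, SE 0.14, adjusted p = 0.0421) were called, while Klf4 was not (0.27, SE 0.14, adjusted p = 0.88). Differences between these slopes and that of Klf2 were not tested. None of the 28 egress and homing genes was called on that level in limma, with a median slope of -0.005 beside -0.004 for all genes.

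**Figure D5:**
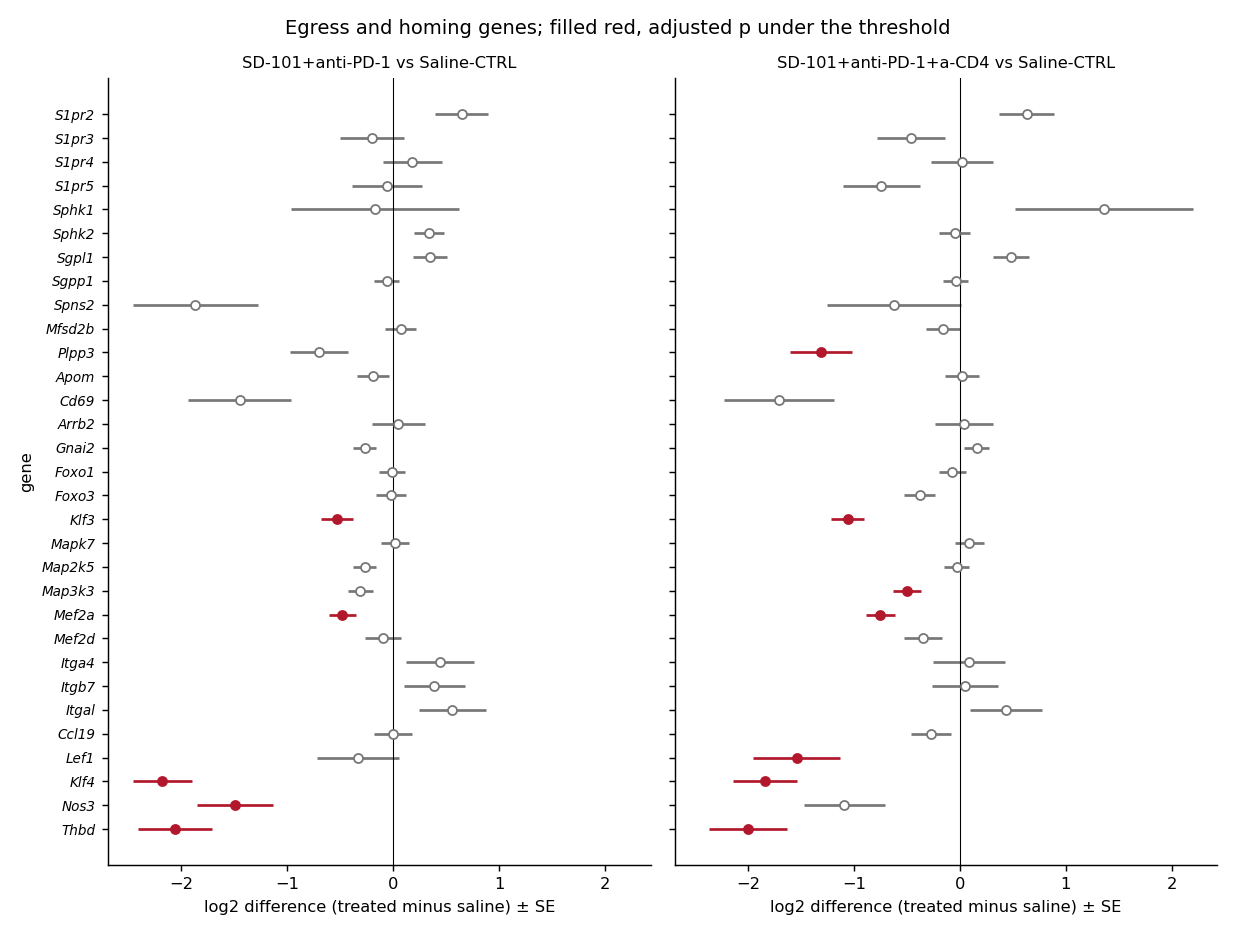
Log2 difference from saline with SE (x axis) of 28 egress and homing genes and the 3 flow-linked genes Klf4, Nos3 and Thbd (y axis) with SD-101+anti-PD-1 (left) and SD-101+anti-PD-1+a-CD4 (right). Filled red points passed the test, 2 and 5 of the 28 genes, all lower.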

How the data were processed

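RNA of purified CD44+CD8+ T cells was labelled with biotin and hybridised to 20 Affymetrix arrays, per the labels. Values deposited by the authors are log2 levels, 1 per probe set (1.78 to 13.44, array medians 3.52 to 3.75), and the submitters' processing notes name affy, RMA, limma and the build mm8, without versions, roles or order. They were used with no further normalization. Arrays carry no read depth, and the number of arrays limits precision. Array values of a group correlated at 0.954 to 0.993 and no pair was identical.

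Of 45141 probe sets, 28898 have 1 symbol, 551 several and 15692 none. Through Entrez identifiers 28689 matched RefSeq, with 0 symbols changed. For genes with several probe sets the one of highest mean over all arrays was kept. Group means were fitted in limma 3.58.1 (R 4.3.3), and genes were called at a Benjamini-Hochberg adjusted p under 0.05 over all genes (2-sided). Slopes were fitted with group means as terms, leaving the genes that form the level out of the adjustment. Correlations used 100000 permutations within groups, or exact enumeration in SD-101. Fits were tested on simulated data.

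The members, lists and tests were chosen with earlier results of these data known. Named genes were the members, Cdh5, Pecam1, the egress genes, the 5 genes most like each member and up to 3 markers of highest level per list. Tek, Cd79b and the tissue handling genes were named after their values were seen or by level. Other settings changed probe set choice, scaling, level filter, variance model, array weights, replicate number as a block, and left out each array. Added with the values in view were 2 covariates, the omission of 2 arrays and the test between slopes.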

Additional observations from a re-analysis of the deposited data

Results flagged for a closer look

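In 4 of 64 sets of values checked, 1 array stood apart from the rest of its group by Dixon's gap, which chance gives in about 1 in 20 groups. Cd69 was 6.79 on SD-101+anti-PD-1+a-CD4 replicate 2, the nearest array of the group being at 8.44. The T cell marker level of the same array was 8.42, the nearest being 10.10, and its Klf2 and S1pr1 were the lowest of all arrays. The mean of Klf4, Nos3 and Thbd was 7.34 on SD-101+anti-PD-1+a-CD4 replicate 1, against 6.47 on the nearest. The mean of the neutrophil markers was 9.73 on Saline-CTRL replicate 1, against 3.55 on the nearest.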

How the results depend on the processing

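The S1pr1 slope on the endothelial level stayed positive and uncalled under the scaling, filter, array weight, block, marker choice and handling level alternatives and with 1 array left out, but was called with the T cell level in the same fit (0.344, limma adjusted p = 0.0338). The fit with both levels was not repeated with arrays left out. The Klf2 slope was uncalled with a sign that turned: 0.006 with arrays centred on their median, 0.014 after quantile normalization, 0.056 on Pecam1 alone and -0.112 to 0.125 with 1 array left out. With replicate number as a replicate block it was 0.256 (limma adjusted p = 0.526). Numbers did not pair the samples (median r 0.01 over 27 same-number pairs, -0.01 over 122 others), and SD-101 replicate 6 alone has its number. In that block fit the Klf2 difference at an equal endothelial level was -0.136 for SD-101+anti-PD-1 and -0.891 with a-CD4 added against saline, and 0.019 and -0.735 against SD-101, so the Klf2 values at an equal level depend on this choice. With 1 array left out they ran from -1.487 to -0.564 for SD-101+anti-PD-1 against saline and from -1.191 to -0.383 against SD-101. With the block, Klf3 and Mef2a in SD-101+anti-PD-1 against saline had limma adjusted p of 0.0533 and 0.0651. The block called 242 genes for the addition of a-CD4 (364 without it) and 102 slopes (278 without it, 153 to 377 with 1 array left out).

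Called genes also moved. For SD-101 against saline (57) they were 36 centred, 119 with arrayWeights, 10 from only the 2 groups, 120 with the handling level and 25 to 77 with 1 array left out. For SD-101+anti-PD-1 against saline (962) they were 566 among genes above the median level, 1953 with arrayWeights, 1498 with the T cell level, and 0 in limma with the handling level (1460 at unadjusted p under 0.05). Leaving out 1 array gave 553 (without Saline-CTRL replicate 3) to 1531 (without Saline-CTRL replicate 2). For SD-101+anti-PD-1 against SD-101 (816) they were 325 above the median level, 2760 with arrayWeights, 1332 from the 2 groups, 3 with the handling level and 317 to 1086 with 1 array left out. For the addition of a-CD4 (364) they were 149 above the median level, 1246 with arrayWeights, 62 without the 2 arrays of lowest T cell level, 834 with that level, 737 with the handling level and 73 (without SD-101+anti-PD-1+a-CD4 replicate 2) to 488. For that group against saline (1218) they were 476 from the 2 groups, 2602 with the T cell level and 665 to 1263, and against SD-101 (168) 68 centred, 603 with arrayWeights, 56 from the 2 groups, 51 without the 2 arrays, 658 with the T cell level and 35 to 221. The cause was not tested.

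With the handling level the Klf2 differences were -0.272 and -0.849 against saline and -0.322 and -0.899 against SD-101. The S1pr1 slope on the T cell level was 0.472 when centred (limma adjusted p = 0.0135) and 0.084 to 0.492 with 1 array left out. The Klf2 dendritic slope was 0.079 when centred and -0.082 to 0.1 with 1 array left out, and the B cell slopes -0.059 to 0.39 (Klf2) and -0.215 to 0.204 (S1pr1). Correlations without the 2 farthest arrays were -0.068 for Klf2 with Pecam1 and 0.544 for S1pr1 with Cdh5 (adjusted permutation p = 0.0461). With 1 array left out they were -0.271 to 0.130 (Klf2, Cdh5), -0.079 to 0.310 (Klf2, Pecam1), 0.337 to 0.533 (S1pr1, Cdh5) and 0.580 to 0.735 (S1pr1, Pecam1). Centring moved the median of all genes from 0.031 to -0.107 for SD-101+anti-PD-1 against saline and from 0.008 to -0.109 against SD-101. No other probe set of Klf2 or S1pr1 was there to try.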
